A study of Mus musculus with 12 samples.

Results

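The report concerns 5 mature miRNAs that are best known from liver and gut and that were nevertheless counted in mouse prefrontal cortex: miR-122-5p, miR-122-3p, miR-192-5p, miR-194-5p and miR-215-5p. They were chosen by name, with their levels in the libraries known from earlier work on these data, so the levels below are a description and carry no test. They are 5 of the 1422 mature and predicted miRNAs with a count in the series, of which 1374 are mature miRNAs. All 5 had counts, and 4 of them passed the filter of at least 5 counts in at least 3 libraries that 780 miRNAs passed. miR-215-5p did not pass it.

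A miRNA is cut from a hairpin precursor, from which the 5' arm (5p), the 3' arm (3p) or both are kept, and it finds its target mRNAs mainly through the seed near its 5' end. miR-122-5p is by far the most abundant miRNA of hepatocytes, where it acts on genes of cholesterol and lipid metabolism, and miR-122-3p is the minor arm of the same hairpin. miR-192-5p, miR-194-5p and miR-215-5p are typical of gut epithelium, liver and kidney. Their genes lie in a pair of clusters, one with Mir194-1 and Mir215 and the other with Mir194-2 and Mir192. Neurons and glia are not known as a main source of any of them.

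The small RNA came from the medial prefrontal cortex (PFC) of adult male C57BL/6 mice that went through a conditioned place preference procedure, in which an animal learns to link a chamber with a drug. Each of the 4 groups had 3 libraries, for each of which the RNA of 2 animals was pooled. Mice of the SS group were given saline only (saline+saline), CS mice cocaine at 20 mg/kg and saline (cocaine+saline), MS mice L-methionine and saline (MET+saline), and MC mice L-methionine and cocaine (MET+cocaine). By the labels, L-methionine was given under the skin at 1 g/kg in 2 injections a day for 10 days (a legend of the study names a different dose), and tissue was taken 2 h after the test. RNA of 18 to 30 nt was sequenced. A level in such bulk tissue cannot tell fewer cells of a type from less RNA per cell.

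The 3 members for which RefSeq entries were matched are shown with the seed (bases 2 to 8) in capitals, because the seed groups miR-192-5p with miR-215-5p and sets miR-194-5p apart.
mmu-miR-192-5p: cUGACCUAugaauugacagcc
mmu-miR-215-5p: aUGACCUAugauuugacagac
mmu-miR-194-5p: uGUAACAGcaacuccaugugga

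miR-192-5p lies at chr19:6264857-6264877 and miR-215-5p at chr1:185313610-185313630, both on the plus strand of GRCm38. They share 18 of 21 bases. Counted from 1 at the 5' end, with the base of miR-192-5p first, they differ by C1A, A12U and C20A, all of them outside the seed. Among the 1679 mature mouse miRNAs of the RefSeq table, miR-215-5p was the only other one with the seed of miR-192-5p, and none shared the seed of miR-194-5p. Because only 3 bases separate miR-192-5p from miR-215-5p, the division of counts between them is uncertain where a read carries an error or ends early.

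miR-194-5p has the same sequence in both clusters, at chr1:185313325-185313346 in Mir194-1 and at chr19:6264658-6264679 in Mir194-2, so its counts cannot be assigned to a cluster. The 3p arms of both hairpins do differ, and they are shown with the differing bases in capitals.
mmu-miR-194-1-3p: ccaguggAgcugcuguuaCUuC
mmu-miR-194-2-3p: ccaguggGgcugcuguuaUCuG

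In the GENCODE M21 annotation, Mir194-1 and Mir215 were 195 bases apart, inside the antisense RNA gene 2010103J01Rik on the same strand. Mir215 overlapped an exon of that gene and Mir194-1 none. Both also lay within Iars2, which runs on the opposite strand and encodes a mitochondrial isoleucyl-tRNA synthetase. Mir194-2 and Mir192 were 115 bases apart, and no other annotated gene overlapped them. The 3p arm of the chromosome 19 copy, miR-194-2-3p, was counted in all 12 libraries with 90 counts in total, whereas miR-194-1-3p was listed in none. miR-215-5p had 18 counts in total, against 26686 for miR-192-5p. Counts that can be placed in a cluster thus fell almost entirely on the one with Mir194-2 and Mir192.

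Several libraries stood apart before any comparison of the groups. Total counts ranged from about 7770000 to 11080000 per library, and miRNAs took between 56.08% and 67.94% of them. The libraries were divided into 3 sets by the profiles of 125 miRNA precursor families, and the sets crossed the groups. The number of sets was fixed in the clustering and was not a result of it. Library set A was formed by CS replicates 8 and 9 with SS replicate 12. Library set B took in every MS library, MC replicate 20 and SS replicates 13 and 14. MC replicates 16 and 17 with CS replicate 10 formed library set C. The sets were the same when the precursor families of the members were left out and 122 families remained. MS lay wholly in set B and CS wholly outside it, so for the contrast of MS with CS the set and the treatment cannot be told apart. MC replicate 16 had the lowest scaling factor, 0.675, against 0.826 to 1.26 in the other libraries.

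Levels are given as CPM, the counts of a miRNA per 1000000 counts of the library. No correction for length was made between members, since those printed above, which do not include the miR-122 arms, are 21 or 22 nt long. Whether the sequences were captured equally well was not tested, so levels of different members are set side by side as counted. One count was worth 0.0903 to 0.129 CPM, and a count of 0 allows a level of up to 0.271 to 0.386 CPM by the limit of 3 counts, depending on the library. Intervals and limits cover counting error only.

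miR-122-5p varied 276-fold between its lowest and its highest library. It was counted at 11.2, 58.8 and 54.5 CPM in SS replicates 12, 13 and 14, and at 14.4, 10.8 and 9.04 CPM in CS replicates 8, 9 and 10. In MS replicates 3, 4 and 23 it stood at 2494, 173 and 69.4 CPM. In MC replicates 16, 17 and 20 it stood at 140, 9.91 and 116 CPM. MS replicate 3 was thus far above every other library, and it held 27356 of the 33815 counts of this miRNA in the series.

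The mean level was 41.5 ± 26.3 CPM in SS and 11.4 ± 2.73 in CS, with 912 ± 1371 in MS and 88.6 ± 69.2 in MC (SD, n = 3). Only CS was tight, and the SD of MS exceeded its mean. Without MS replicate 3 the other 2 MS libraries averaged 121 CPM, and both lay above all 3 SS libraries. The range of MC covered both SS and CS. In MS replicate 3 miR-122-5p ranked 48 among miRNAs, and in the other libraries between 131 and 348.

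The levels of miR-122-5p also followed the library sets. Set A lay between 10.8 and 14.4 CPM, whatever the treatment. The libraries of set B lay between 54.5 and 2494 CPM, with a median of 92.5. Set C held 2 libraries at 9.04 and 9.91 CPM and MC replicate 16 at 140 CPM. Within SS, the low library was the one of set A and the higher ones were both of set B. Each CS library belonged to set A or C, so the lower levels of CS and its library sets moved together, and the part of either was not tested apart from the fit with the library set given with the comparisons.

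Outside MC replicate 16, miR-122-3p followed its partner arm at a much lower level. It had 6, 14 and 15 counts in SS replicates 12, 13 and 14 (0.729, 1.39 and 1.35 CPM) and 3, 4 and 2 counts in CS replicates 8, 9 and 10 (0.354, 0.459 and 0.244 CPM). MS replicates 3, 4 and 23 had 367, 27 and 18 counts (33.5, 2.70 and 1.73 CPM). MC replicates 16, 17 and 20 had 1, 2 and 20 counts (0.129, 0.251 and 1.83 CPM). MS replicate 3 was again the highest library, and the 6 libraries of set B were the 6 highest.

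The ratio of the arms of miR-122 was checked in each library, since both are cut from 1 hairpin. miR-122-5p exceeded miR-122-3p by 15.3 to 74.5 times in 11 libraries, with 74.5 in MS replicate 3. In MC replicate 16 the ratio was 1088, from 1088 counts of the 5p arm and 1 of the 3p arm, with a 95% interval from 195 to 43010. Its lower bound lay above the ratio of every other library, although the intervals of libraries with 2 or 3 counts of the 3p arm reached into it. The 5p arm of MC replicate 16 was exceeded only in MS replicates 3 and 4, while its 3p arm was the lowest.

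miR-192-5p was more even. It stood at 116, 142 and 148 CPM in SS replicates 12, 13 and 14 and at 149, 149 and 116 CPM in CS replicates 8, 9 and 10. MS replicates 3, 4 and 23 had 1013, 234 and 153 CPM. MC replicates 16, 17 and 20 had 34.1, 118 and 266 CPM. The other 10 libraries lay between 116 and 266 CPM, with MS replicate 3 far above and MC replicate 16 far below them.

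The group means of miR-192-5p were 135 ± 16.8 CPM in SS and 138 ± 19.0 in CS, with 467 ± 475 in MS and 139 ± 117 in MC (SD, n = 3). SS, CS and MC differed by less than their spread. Without MS replicate 3 the mean over the remaining 11 libraries was 148 ± 61.0 CPM.

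miR-194-5p did not show the excess in MS replicate 3. Its levels were 155, 195 and 177 CPM in SS replicates 12, 13 and 14 and 347, 206 and 11.7 CPM in CS replicates 8, 9 and 10. MS replicates 3, 4 and 23 had 293, 194 and 164 CPM. MC replicates 16, 17 and 20 had 38.6, 77.8 and 299 CPM. The highest library was CS replicate 8, followed by MC replicate 20 and MS replicate 3, and the lowest 3 were those of library set C. The means were 176 ± 20.1 CPM in SS and 188 ± 169 in CS, with 217 ± 67.5 in MS and 138 ± 140 in MC (SD, n = 3), and the groups overlapped.

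miR-215-5p, which carries the seed of miR-192-5p, was close to the limit of detection. SS replicates 12, 13 and 14 had 1, 0 and 0 counts, and CS replicates 8, 9 and 10 had 2, 3 and 2. MS replicates 3, 4 and 23 had 2, 1 and 1 counts, and MC replicates 16, 17 and 20 had 0, 4 and 2. A difference between libraries was not detectable at this depth, as the 95% Poisson intervals of the 9 libraries with counts overlapped each other and the range that 0 counts allow in the other 3. The 2 counts in MS replicate 3 (0.182 CPM) stood beside 11116 counts of miR-192-5p in the same library.

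**Figure D1:**
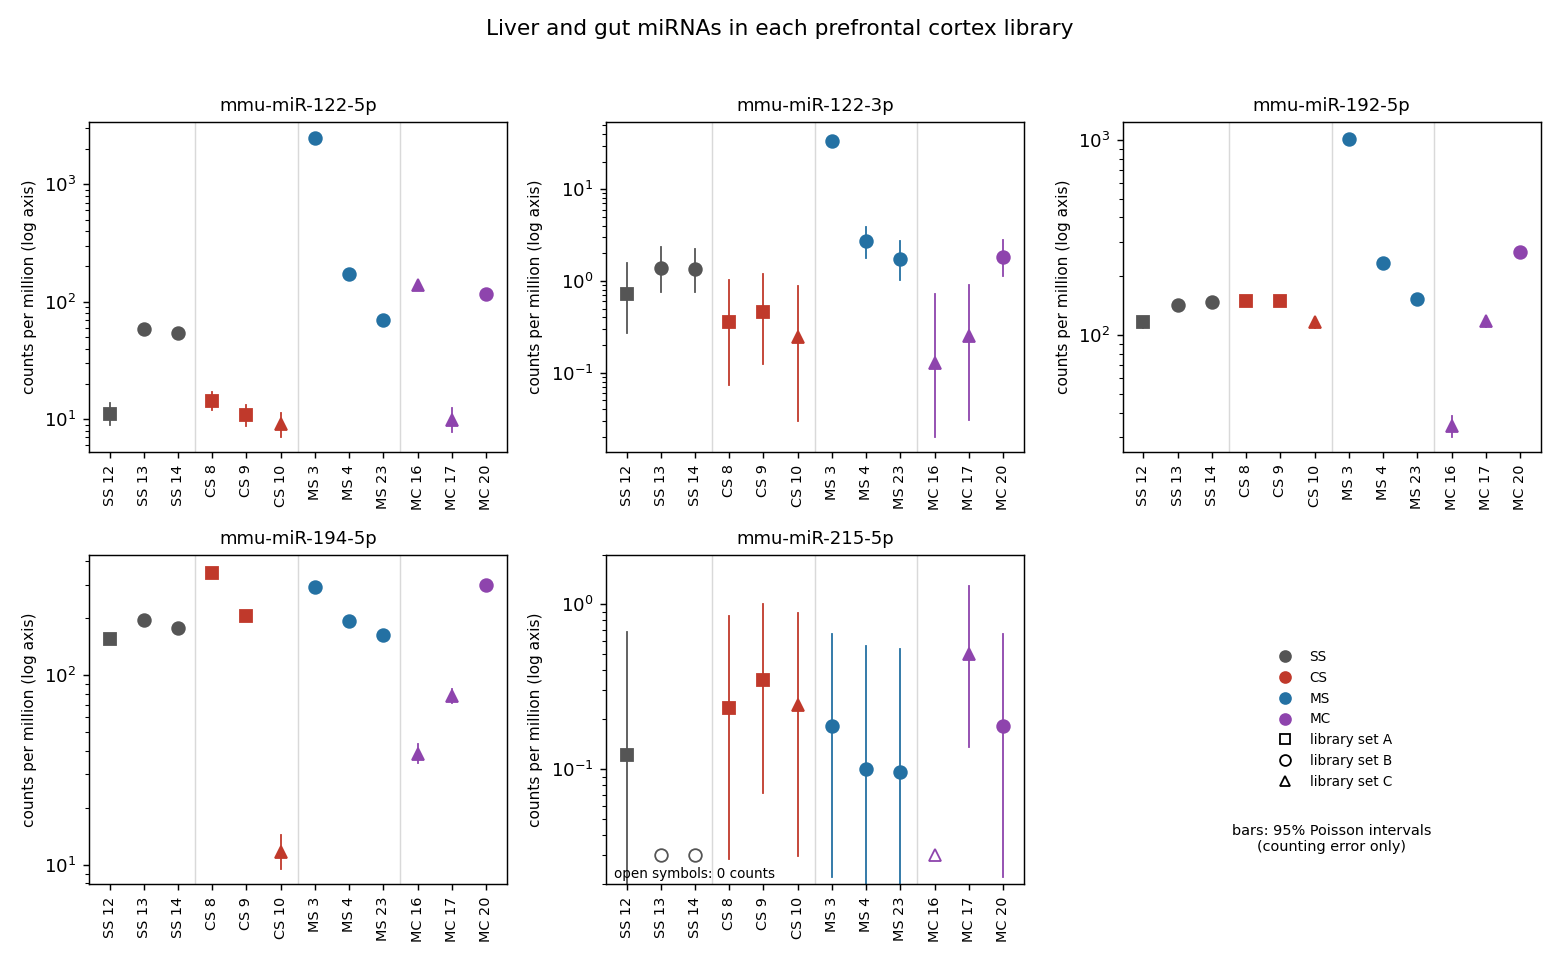
Level of each member in the 12 libraries, in CPM on a log axis, with 95% Poisson intervals; colours give the group and symbols the library set. MS replicate 3 stands highest for miR-122-5p (2494 CPM), miR-122-3p (33.5) and miR-192-5p (1013), but not for miR-194-5p (293), and miR-215-5p has at most 4 counts in any library.

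In order of mean level over the 12 libraries the members stood at 263 ± 705 CPM for miR-122-5p, 220 ± 257 for miR-192-5p, 180 ± 103 for miR-194-5p, 3.72 ± 9.40 for miR-122-3p and 0.168 ± 0.151 for miR-215-5p (SD, n = 12). The first 3 did not differ beyond their spread. Without MS replicate 3 the mean of miR-122-5p was 60.6 CPM, which placed it below miR-194-5p at 169 and miR-192-5p at 148, and that of miR-122-3p was 1.02 CPM. Among the 1422 miRNAs miR-192-5p ranked 132, between miR-140-5p and miR-543-3p. miR-194-5p ranked 142, between miR-187-3p and miR-338-3p, the latter a miRNA of oligodendrocytes. miR-122-5p ranked 121, next above miR-1843a-5p.

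MS replicate 3 was then set against the other 11 libraries. miR-122-5p was 45.7 times and miR-122-3p 45.9 times the median of the others, so both arms were higher by nearly the same factor. miR-192-5p was 6.85 times that median and miR-194-5p 1.66 times. Against the next highest library the factors were 14.4 for miR-122-5p and 12.4 for miR-122-3p, both over MS replicate 4, and 3.81 for miR-192-5p over MC replicate 20. Of the 780 miRNAs tested, 3 were highest in MS replicate 3 by at least 3-fold over every other library (0.385%), and these were miR-122-5p, miR-122-3p and miR-192-5p. The limit of 3-fold was chosen after the values were seen. The same count was 0 to 7 in the other libraries, with 7 in MC replicate 16 and 5 in MC replicate 20.

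The members kept no fixed proportion to each other. The ratio of miR-122-5p to miR-192-5p lay between 0.0722 and 0.0966 in set A and between 0.369 and 2.46 in set B, where MS replicate 3 was the highest. In set C it was 0.0777, 0.0842 and, in MC replicate 16, 4.11. Thus MC replicate 16 had more miR-122-5p per miR-192-5p than MS replicate 3, at a far lower level of both. The ratio of miR-192-5p to miR-194-5p, whose genes are neighbours in the cluster on chromosome 19, was between 0.429 and 1.51 in 10 libraries. It was 3.46 in MS replicate 3, where miR-192-5p was high, and 9.92 in CS replicate 10, where miR-194-5p was low.

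**Figure D2:**
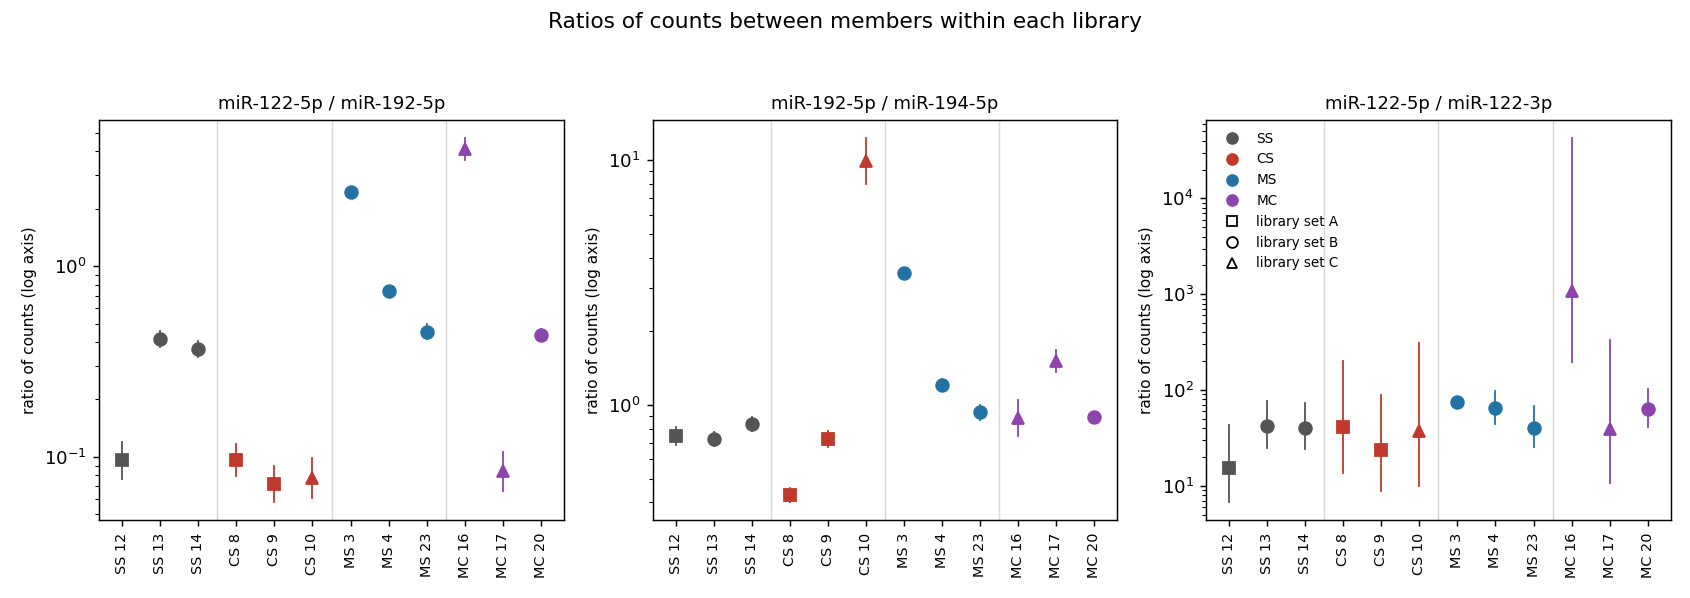
Ratios of counts between members within each library (log axes) with 95% intervals for counting error; colours give the group and symbols the library set. miR-122-5p over miR-192-5p is highest in MC replicate 16 (4.11) and MS replicate 3 (2.46), miR-192-5p over miR-194-5p in CS replicate 10 (9.92) and MS replicate 3 (3.46), and miR-122-5p over miR-122-3p in MC replicate 16 (1088).

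The deposited tables also count reads on the precursor families, apart from the mature miRNAs. As RNA of 18 to 30 nt was sequenced, these are short reads assigned to a family and not levels of intact hairpins. How reads were divided between families and mature miRNAs is not stated in the sources used here. The mir-122 family had 1622 counts in MS replicate 3 (148 CPM) and 2 to 71 in the others. For the mir-192 and mir-215 family the library with the most was again MS replicate 3, with 859 counts (78.3 CPM) against 2 to 87. The mir-194 family had 85 counts there (7.75 CPM), next to 63 in MC replicate 20, and 0 in CS replicate 10. MS replicate 3 thus had the most counts of all 3 families, by a wide margin for mir-122 and for mir-192 and mir-215. For mature miR-194-5p it had not been the highest library.

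For the families of the cluster miRNAs, library set B stood above sets A and C, which overlapped each other. For the mir-192 and mir-215 family set B lay between 4.68 and 78.3 CPM, set A between 0.243 and 1.53 and set C between 0.244 and 0.515. The mir-194 family ranged from 3.85 to 7.75 CPM in set B and from 0 to 2.48 elsewhere. The mir-122 family did not separate the sets, with 0.458 to 148 CPM in set B, 0.230 to 0.708 in set A and 0.244 to 0.772 in set C. The sets had been found from precursor families, although the same sets resulted without these. In MC replicate 16, where mature miR-122-5p stood at 140 CPM, the mir-122 family had 6 counts. MC replicate 20, at 116 CPM of mature miR-122-5p, had 5 counts of the family, whereas SS replicate 13, at 58.8 CPM, had 43.

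**Figure D3:**
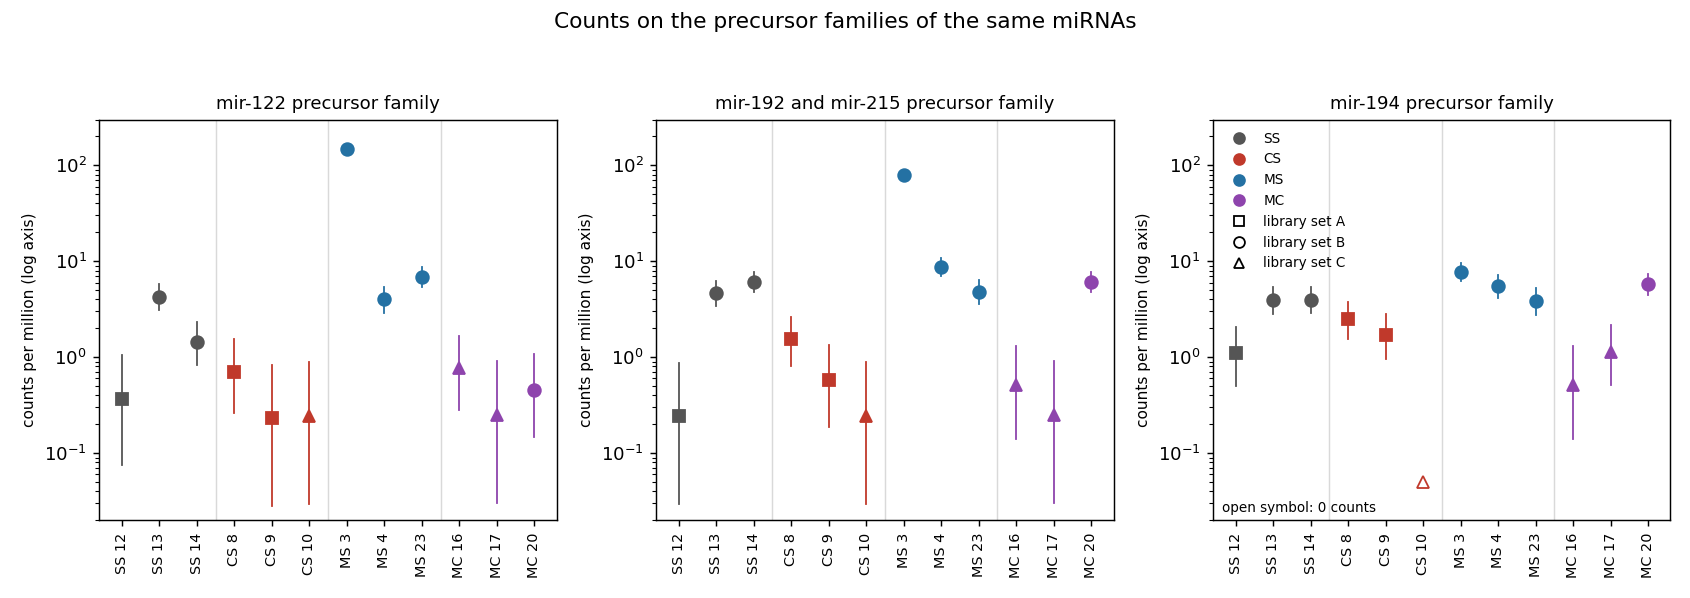
Level in CPM (log axis) on the precursor families of the members in the 12 libraries, with 95% Poisson intervals; colours give the group and symbols the library set, and the open symbol marks 0 counts. MS replicate 3 is far above the others for the mir-122 (148 CPM) and mir-192 and mir-215 (78.3 CPM) families and close to the rest of set B for the mir-194 family (7.75 CPM).

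The minor arms were sparse. miR-192-3p was counted in 10 libraries with 38 counts in total, of which MC replicate 20 had 10 and MS replicate 3 had 8 (0.729 CPM). miR-194-2-3p stood at 1.82 CPM in MS replicate 3 and was highest in MC replicate 16, at 2.06 CPM, where miR-194-5p was low at 38.6 CPM. miR-215-3p had 1 count in all, in MC replicate 17.

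The comparisons of the study were tested by edgeR's quasi-likelihood method on the counts of all 780 miRNAs, with p-values adjusted by Benjamini and Hochberg over all of them. A call needed an adjusted p no higher than 0.05 and a log2 fold change of 1 or more in size. In CS vs SS, MS vs SS, MC vs CS and MC vs MS, edgeR called 0 of 780 miRNAs (0%), and none of the members. At an unadjusted p under 0.05 it counted 22, 75, 58 and 65 miRNAs in these comparisons. DESeq2 called 0 in CS vs SS, MC vs CS and MC vs MS and 9 of 780 (1.15%) in MS vs SS. In MS vs SS it gave no adjusted p for 249 of the 780.

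MS vs SS asks what methionine did without cocaine. miR-122-5p had a log2 fold change of 4.24 (SE 1.39, edgeR adjusted p = 0.336), and over the alternatives its adjusted p ranged from 0.0122 to 0.864. The change of miR-122-3p was 3.22 (SE 1.08, adjusted p = 0.336 by edgeR). That of miR-192-5p was 1.57 (SE 0.679, adjusted p = 0.5 by edgeR). miR-194-5p stood at 0.06 (SE 0.829, adjusted p = 0.995 by edgeR). By size of the log2 fold change these values ranked 8, 13, 50 and 706 among the 780 miRNAs, whose median size was 0.375.

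These sizes rested on 1 library. Without MS replicate 3 the log2 fold changes of MS over SS were 1.21 for miR-122-5p (SE 0.965, edgeR adjusted p = 0.864), 0.62 for miR-122-3p (SE 0.716) and 0.22 for miR-192-5p (SE 0.496). DESeq2 called miR-122-5p at 4.25 (SE 1.14, adjusted p = 0.0122) with all libraries, and it gave no p for miR-122-3p. Every MS library lay above every SS library for 3 of the 4 members tested, miR-122-5p, miR-122-3p and miR-192-5p. That pattern was shared by 146 of 780 miRNAs (18.7%), and no member showed the opposite one, which 4.1% of miRNAs did.

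Within library set B, where 3 MS and 2 SS libraries can be compared, miR-122-5p changed by 3.83 on the log2 scale (SE 1.71, edgeR adjusted p = 0.316) and by 0.80 without MS replicate 3 (SE 0.395, adjusted p = 0.364). In that set edgeR called 7 miRNAs, none of them a member, and without MS replicate 3 it called 0. With the library set as a covariate over all libraries the value was 4.03 (SE 1.54, edgeR adjusted p = 0.565).

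**Figure D4:**
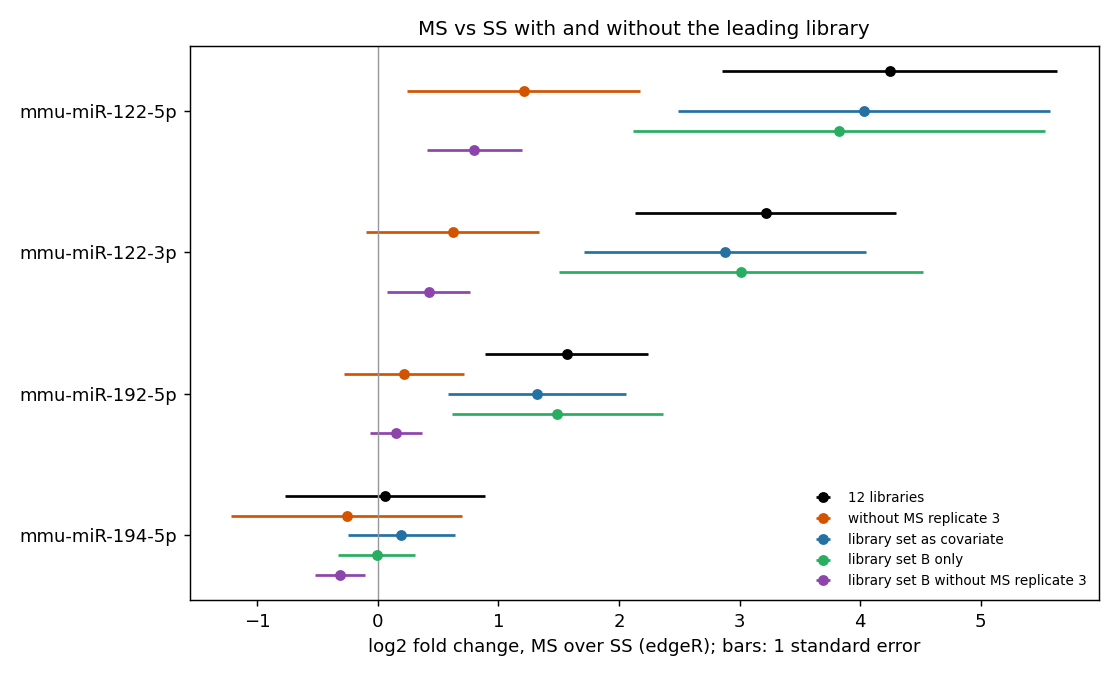
Log2 fold change of MS over SS by edgeR for the 4 members tested, with bars of 1 standard error, for all 12 libraries and for 4 other choices of libraries or covariate. The value of miR-122-5p falls from 4.24 to 1.21, and within library set B from 3.83 to 0.80, when MS replicate 3 is left out, while miR-194-5p stays near 0 (0.06 with all libraries).

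CS vs SS asks what cocaine did without methionine. The log2 fold change was -2.16 for miR-122-5p (SE 1.28) and -1.95 for miR-122-3p (SE 1.23), with an edgeR adjusted p of 0.994 for both. miR-192-5p and miR-194-5p stood at -0.23 (SE 0.665) and -0.28 (SE 0.83). Every CS library was below every SS library only for miR-122-3p among the members, a pattern held by 7 of 780 miRNAs (0.897%). For miR-122-3p it rested on 2 to 4 counts in CS and 6 to 15 in SS. The 95% Poisson intervals of CS replicate 9 and SS replicate 12 overlapped. No member showed the opposite pattern, which 12.3% of miRNAs did. With the library set as a covariate the values of miR-122-5p and miR-122-3p were -1.09 (SE 1.78) and -0.72 (SE 1.55). The change of miR-192-5p had the opposite sign with that covariate, at 0.41, and with library totals in place of scaling factors, at 0.031. For miR-194-5p the sign also turned with library totals, at 0.10, and without CS replicate 10, at 0.23.

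MC vs CS asks what methionine did in mice given cocaine. miR-122-5p changed by 3.32 on the log2 scale (SE 1.34, edgeR adjusted p = 0.577), and without MC replicate 16 by 2.38. The changes of miR-122-3p, miR-192-5p and miR-194-5p were 1.12 (SE 1.27), -0.03 (SE 0.664) and -0.36 (SE 0.83). All of them turned sign under single alternatives, miR-122-3p to -0.64 without MC replicate 20, miR-192-5p to 0.37 without MC replicate 16, and miR-194-5p to 1.46 with the library set as a covariate. No member separated all MC from all CS libraries, where 2.95% of miRNAs were higher and 2.05% lower without overlap.

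MC vs MS compares the methionine groups with and without cocaine. The values were -3.08 for miR-122-5p (SE 1.32), -4.05 for miR-122-3p (SE 1.13) and -1.83 for miR-192-5p (SE 0.685), each with an edgeR adjusted p of 0.561. miR-194-5p stood at -0.70 (SE 0.833), and at 0.91 (SE 0.603) with the library set as a covariate. MS replicate 3 again set the size, and without it the values were -0.04, -1.47 and -0.48 for the first 3. MC vs MS shares its MS libraries with MS vs SS, and MC vs CS shares its libraries with both CS vs SS and MC vs MS. No member was without overlap between MC and MS, where 5.64% of miRNAs were higher in MC and 2.69% lower.

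The interaction of cocaine and methionine gave no call by either tool (34 miRNAs at an unadjusted p under 0.05 by edgeR and 43 by DESeq2), and the edgeR adjusted p of the members lay between 0.804 and 0.927. The interaction of miR-122-5p was -0.92 on the log2 scale (SE 1.74) and 2.11 (SE 1.35) without MS replicate 3. For a difference among the 4 groups edgeR also called 0 of 780 (59 at an unadjusted p under 0.05), with an adjusted p of 0.525 for miR-122-5p and 0.42 for miR-122-3p. DESeq2 called 12 of 780 (1.54%) there, miR-122-5p among them (adjusted p = 0.001), and gave no adjusted p for 128 of the 780.

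Set against the library sets, as a description, every library of set B was above every library of set A for miR-122-5p and miR-122-3p, which held for 9 of 780 miRNAs (1.15%). miR-122-3p, miR-192-5p and miR-194-5p were higher in every library of set B than in set C, as were 21 miRNAs in all (2.69%). For set A above set C the members were miR-122-3p and miR-194-5p, among 82 (10.5%). For miR-122-3p that order rested on 3 to 6 counts in set A and 1 to 2 in set C.

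Marker lists of other tissues and cell types were summed in each library to see what moved with the members. The list for digestive organs had 10 of 11 miRNAs listed, and its sum in MS replicate 3 was 267 CPM, the lowest of the 12 libraries, against 284 to 634 in the others. miR-31-5p and miR-375-3p made up nearly all of it. miR-31-5p stood at 187 CPM in MS replicate 3, where only MC replicate 16 was lower, at 148. miR-375-3p, known from pancreatic islets and also from pituitary and other endocrine cells, stood at 73.2 CPM there, within its range of 42.4 to 135.

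The more specific members of that list were low, at a few CPM or less, and several were near the limit of detection. miR-802-5p, a miRNA of liver and pancreas, stood at 0.729 CPM in MS replicate 3 within a range of 0.121 to 1.00. miR-216a-5p and miR-216b-5p, which mark the exocrine pancreas, stood at 2.83 and 1.64 CPM there, above that limit. miR-216b-5p was at its highest, beside a median of 0.424 CPM, while miR-216a-5p was highest in SS replicate 14, at 3.07 CPM. miR-217-5p had 7 counts and miR-216a-3p 5 counts in all 12 libraries. Both were highest in MS replicate 3, at 0.182 CPM, but below the limit of 3 counts there (0.2735 CPM). miR-802-3p stood at 0.0912 CPM in that library and was highest in CS replicate 10, at 0.367 CPM. miR-217-3p was highest in MS replicate 4 and miR-147-3p in CS replicate 8. In MS vs SS, 0 of the 5 tested were called by edgeR, and their median log2 fold change was 0.20, beside -0.03 over all miRNAs.

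The epithelial list holds the miR-200 family, with miR-141-3p and miR-429-3p, and also miR-203-3p and miR-205-5p. Its sum was 837 CPM there, against 83.3 to 482 CPM in 10 others and 1044 in CS replicate 10. miR-429-3p, of the miR-200 family, stood at 344 CPM in MS replicate 3 and 459 CPM in CS replicate 10, with a median of 67.4. miR-203-3p stood at 50.3 CPM in MS replicate 3, below its median of 53.3, and miR-205-5p at 1.55 CPM beside a median of 1.36, and both were highest in CS replicate 8. The high sum of MS replicate 3 thus came from the miR-200 family. CS replicate 10 had the lowest miR-122-5p of the series (9.04 CPM) and the lowest miR-194-5p (11.7 CPM), so a high epithelial sum went with high miR-122-5p in the first library and not in the second. edgeR called 0 of the 7 in each pairwise comparison, and all 7 had values above 0 in MS vs SS and in CS vs SS. The part of these miRNAs in the levels of the members was not tested.

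The red blood cell list summed to 3992 CPM in MS replicate 3, its highest value, against 465 to 3615 CPM in the others. miR-451a, the main miRNA of red blood cells, made up most of it, with 3947 CPM in MS replicate 3 and 3549 in MC replicate 17, where miR-122-5p was 9.91 CPM. The sums of MS replicate 3 over the median of the others were 3.04 for epithelia, 0.573 for digestive organs, 1.66 for red blood cells, 1.28 for leukocytes, 1.02 for muscle, 1.23 for vessel wall and endothelium, 1.29 for choroid plexus and ependyma, and 1.43 for brain. Whether blood or other tissue contributed to the members was not tested.

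Brain miRNAs were high in every library. The list of miR-124-3p, miR-9-5p and 6 others summed to between 105200 and 273300 CPM. MS replicate 3 had 257800 CPM, exceeded only in SS replicates 12 and 13. Most of its sum was miR-124-3p, at 168200 CPM beside a median of 109600. miR-9-5p stood at 42220 CPM there, below its median of 49920. miR-9-3p, miR-138-5p and miR-338-3p were also below their medians, while miR-128-3p, miR-219a-5p and miR-219a-2-3p were slightly above. MC replicate 16 had the lowest brain sum and the lowest red blood cell, epithelial and vessel sums. Its levels of miR-192-5p (34.1 CPM) and miR-122-3p (0.129 CPM) were the lowest of the series too, whereas its miR-122-5p was not.

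**Figure D5:**
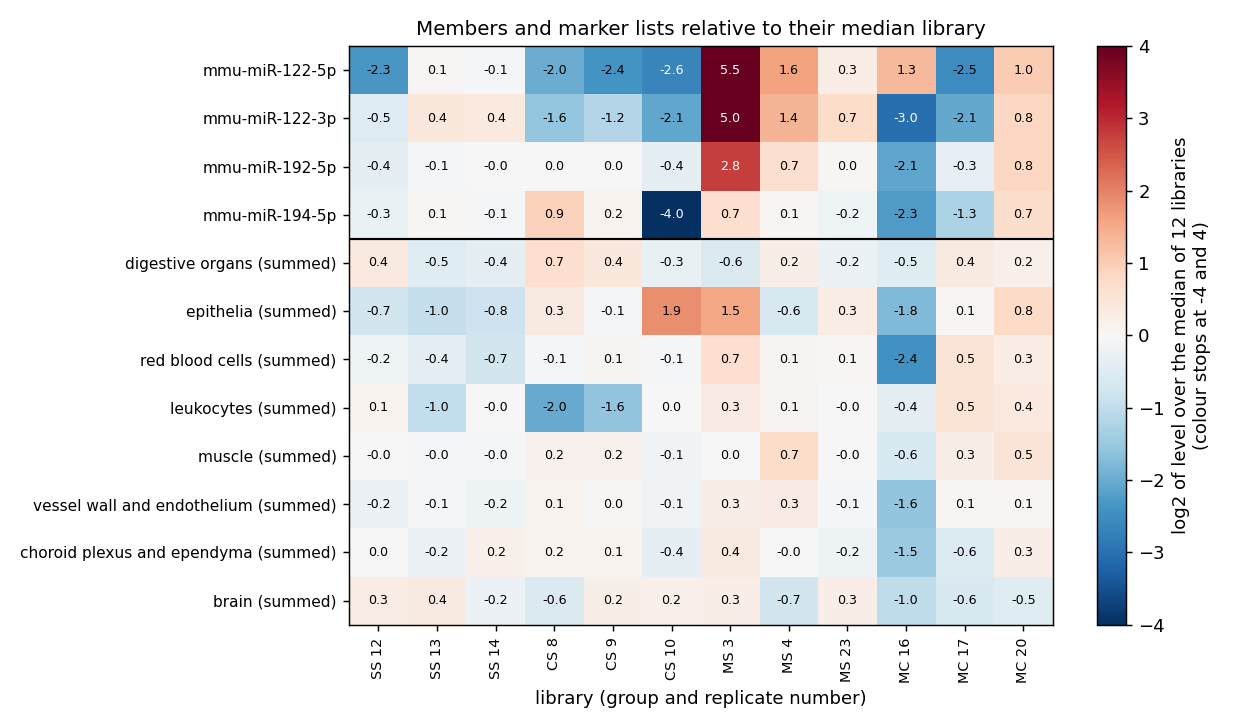
Level of 4 members and summed level of 8 marker lists in each library, as the log2 of the level over its median of the 12 libraries; red is above and blue below the median. MS replicate 3 is far above the median for miR-122-5p, miR-122-3p and miR-192-5p and above it for epithelia. Its digestive organ sum (267 CPM), nearly all of it miR-31-5p and miR-375-3p, is the lowest of the 12.

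The miRNAs most like each member over the 12 libraries were found by Pearson's r of log2(CPM + 0.5) among 742 miRNAs, as a description. For miR-192-5p they were miR-363-3p (r = 0.883, rho = 0.72), miR-10b-5p (0.872, rho = 0.783) and miR-30e-3p (0.832, rho = 0.832), and the r values without MS replicate 3 were 0.73, 0.859 and 0.863. For miR-194-5p they were miR-15b-5p (r = 0.892, rho = 0.755), miR-152-3p (0.857, rho = 0.657) and miR-383-3p (0.855, rho = 0.266). miR-122-3p had miR-363-3p (r = 0.834, rho = 0.734), miR-10b-5p (0.674, rho = 0.629) and miR-192-3p (0.664, rho = 0.718). Without MS replicate 3 these r values were 0.566, 0.522 and 0.612. miR-122-5p had miR-214-3p (r = 0.697, rho = 0.573), miR-363-3p (0.649, rho = 0.364) and miR-7056-3p (0.629, rho = 0.58). Its r values without MS replicate 3 were 0.559, 0.214 and 0.648. miR-10b-5p stood at 12.9 CPM in MS replicate 3 with a median of 5.92, and miR-363-3p at 3.10 CPM with a median of 0.647.

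Among the members, miR-122-5p and miR-122-3p had r = 0.853, and 0.624 without MS replicate 3. miR-122-3p and miR-192-5p had r = 0.892, and 0.717 without that library. miR-122-5p and miR-192-5p had r = 0.586 (rho = 0.538), and r = 0.0449 without it. MC replicate 16, with 140 CPM of miR-122-5p but 34.1 CPM of miR-192-5p, stayed in the latter value, and its part was not tested. The clustered pair miR-192-5p and miR-194-5p had r = 0.561, and 0.591 without MS replicate 3. All these values share the library, its depth and its library set.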

How the data were processed

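The authors removed low-quality reads, adapters and reads under 16 nt and mapped the rest with AASRA. piRNAs were then aligned to piRBase with Bowtie, which the submitters' processing notes also name, with mm10 as the build. Versions are not given in the sources used here. The deposited counts are reads per small RNA without normalization. The authors' deposited TPM is the count over the library total per 1000000. Counts summed to the stated total in all 12 libraries, and TPM matched within 0.005, so CPM here equals TPM. The depth was about 7770000 to 11080000 counts per library, and the intervals (95%, Poisson) cover counting error only. Groups and replicate numbers came from the labels. p-values measure the spread between pools of 2 animals within the groups. In the main fit the 4 groups shared the estimate of that spread for each miRNA. No label names a batch.

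Tests used edgeR 4.0.16 in R 4.3.3 (quasi-likelihood, TMM, library size set to the total, at least 5 counts in 3 libraries, 4 group means over 12 libraries). The rest was done in Python 3.11.15 (matplotlib 3.10.9, scipy 1.17.1, pandas 2.3.3, numpy 2.4.6). The authors' own tool, DEGseq, pools libraries and was not used. On simulated counts for CS vs SS, 132 of 196 miRNAs changed by 2 on the log2 scale were recovered (67.3%, 5 false calls, 759 tested). With a change of 4, 187 of 196 were recovered (95.4%, 8 false calls, 754 tested). The simulation scaled a single mean level of each miRNA by the library total and left out differences between library sets. These shares are over all changed miRNAs, and recovery of the members alone was not tested. No pair of libraries agreed within sampling noise (smallest chi-square per degree of freedom 124.0 over 66 pairs).

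The members, lists and tests were chosen with earlier results of these data known. Named were all members, miRNAs of the lists, the 3 most like each member and the neighbours in rank. To find the library sets, libraries were clustered on log counts of the precursor families (pseudocount 0.5), and the tree was cut into a fixed number of 3 sets. Alternatives were DESeq2 1.42.0, other scalings and filters, the fit without the groups not compared, no fold limit, the library set as a covariate and each library left out. The fits within library set B were added after seeing the data. Sequences are from RefSeq (GRCm38.p6), genes from GENCODE M21. Other small RNAs were not analysed here.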

Additional observations from a re-analysis of the deposited data

How the results depend on the processing

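No paired analysis was possible because the groups share no replicate numbers. Of the counts of called miRNAs, 112 of 118 alternatives kept the count of 0. In MS vs SS the count was 9 with DESeq2, 3 with only the libraries compared, 0 to 5 with each library left out (5 without MC replicate 16), and 7 within library set B. Among the 4 groups it was 12 with DESeq2 and 0 to 3 with each library left out (3 without MC replicate 16). In both, DESeq2 called 1 member, miR-122-5p (MS vs SS 4.25, adjusted p = 0.0122, and adjusted p = 0.001 among the 4 groups). DESeq2 gave no adjusted p for miR-122-3p.

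Of the log2 fold changes of the members, 370 of 394 alternatives kept direction and call and 23 turned the sign. A value counted as kept whatever its size, as miR-122-5p did in MC vs MS at -0.04 without MS replicate 3, beside -3.08. Some alternatives could hardly change a value, such as no fold limit, which used the main fit, or leaving out a library of a group not compared. The tally is therefore no measure of how stable the sizes were. In CS vs SS miR-192-5p turned to 0.031 with totals without TMM and 0.41 with the library set as a covariate. miR-194-5p turned to 0.10 with totals without TMM, and ranged from -0.91 to 0.23 with each library left out. In MS vs SS miR-194-5p ranged from -0.26 to 0.20 with each left out, and was -0.0098 within library set B and -0.31 there without MS replicate 3. In MC vs CS miR-192-5p turned to 0.031 with TMM over all small RNAs and 0.010 with totals without TMM, and ranged from -0.76 to 0.37 with each left out. miR-194-5p turned to 1.46 with the covariate and ranged from -1.38 to 0.27, and miR-122-3p ranged from -0.64 to 1.55. In MC vs MS miR-194-5p turned to 0.91 with the covariate. In the interaction miR-194-5p turned to 1.26 with the covariate and ranged from -1.44 to 0.21 with each left out, miR-122-3p from -3.86 to 0.48 and miR-122-5p from -1.98 to 2.11. The causes were not tested. Scaled to miRNA counts in place of all counts, the mean levels over the 12 libraries rose to 407 for miR-122-5p, 5.72 for miR-122-3p, 346 for miR-192-5p, 285 for miR-194-5p and 0.269 for miR-215-5p, which exceeded 1 SD for miR-194-5p alone. Totals without TMM moved the median of all miRNAs to 0.305 in CS vs SS and 0.215 in MS vs SS.

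With 3 libraries a group, MS replicate 3 sets the spread of MS, and it enters the shared spread of the other comparisons. The SE of miR-122-5p in CS vs SS was 1.28 with all libraries, 0.92 without MS replicate 3 and 0.571 with only the libraries compared. The edgeR adjusted p values of these fits were 0.994, 0.994 and 0.828. The 1 to 6 counts of miR-122-3p in 6 libraries limit its precision, and miR-215-5p was fitted only without the filter, where edgeR did not call it (CS vs SS 2.39, SE 1.23, adjusted p = 1; MS vs SS 1.37, SE 1.29, adjusted p = 0.841).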
